A study of Mus musculus with 16 samples.

Results

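Ureteric bud and nephron induction signals were taken as 10 genes, *Gdnf*, *Ret*, *Gfra1*, *Wnt4*, *Wnt9b*, *Wnt11*, *Fgf8*, *Bmp7*, *Bmp4* and *Spry1*, picked by symbol for what they do in the developing kidney. All 10 were found once in each table, among 43984 genes listed for histone marks and 55471 listed for DNA methylation. They were measured in undifferentiated mouse induced pluripotent stem cells (iPSCs), which are adult cells returned to an embryonic-like state. The lines came from mice with 4 transgenes, SLC34a1-GCE, tdTomato, rtTAROSA (neo-in) and OKMS-250, which let doxycycline switch on Oct4, Klf4, c-Myc and Sox2. Kidneys and tail tips were collected at 8 to 10 weeks of age, and doxycycline was added to the cultured cells. PTC iPSC lines PTC11 and PTC12 were made from kidney proximal tubule cells, in which a tamoxifen-activated Cre under the Slc34a1 promoter freed the transgenes. TTF iPSC lines TTF1 and TTF4 were made from tail tip fibroblasts of mice with the same alleles, into which Cre was brought on an episomal plasmid, so that origin and the source of Cre cannot be told apart. Each line was picked as a clone and grown without doxycycline, and the same 4 lines stood behind every comparison, 2 of each origin. The comparison of the origins asks whether the chromatin of these kidney signals differs with the cell from which a line was made. The starting cells themselves are not among the samples, so a difference could not be matched to their chromatin.

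The ureteric bud is an outgrowth of the nephric duct that branches into the collecting system of the kidney. It grows toward the metanephric mesenchyme, which secretes the ligand GDNF, and the bud receives GDNF through the receptor tyrosine kinase RET and the co-receptor GFRA1. SPRY1 holds receptor tyrosine kinase signalling back, and BMP4 around the duct opposes budding. WNT11 from the bud tips sustains GDNF signalling, WNT9B from the bud stalk acts on the mesenchyme, and WNT4, FGF8 and BMP7 act there in the steps by which nephron progenitors survive and turn into epithelium. These are roles in the embryonic kidney, and BMP4 and FGF8 also act in the early embryo.

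All 10 genes were annotated as protein coding, and the transcription start site (TSS) of each lay in an exon and an untranslated region of the gene. On mm10 the GDNF pathway genes lay at chr15:7810846-7837575 on the plus strand (*Gdnf*), chr6:118151745-118197718 on the minus strand (*Ret*) and chr19:58235604-58455909 on the minus strand (*Gfra1*). *Spry1* lay at chr3:37639947-37644598 on the plus strand. The WNT genes lay at chr4:137277489-137299726 on the plus strand (*Wnt4*), chr11:103727364-103749821 on the minus strand (*Wnt9b*) and chr7:98835112-98855195 on the plus strand (*Wnt11*). *Fgf8* lay at chr19:45736798-45742915, *Bmp7* at chr2:172868012-172940321 and *Bmp4* at chr14:46383520-46390669, all on the minus strand. For *Gdnf* and *Ret* the histone table used a TSS 165 and 26 bp away from that of the methylation table. Within 1000 bp of the TSS the reference sequence held between 48 CpGs (*Bmp4*) and 197 CpGs (*Wnt4*), a CpG being a C followed by G, the site at which mammalian DNA is methylated.

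Promoter sequences from RefSeq (GRCm38.p6) were matched to 7 of the 10 genes by symbol. Shown here are the 250 bases before the TSS of the 4 genes whose RefSeq start is the TSS of both tables, since methylation was measured around that base and their CpGs are the sites that carry it. *Bmp4* had the fewest CpGs and the highest mean methylation of the 10 genes, *Wnt9b* the second highest mean methylation, *Spry1* more methylation than most genes of like CpG number, and *Wnt11* the most CpGs of the 4 in this window. Each reads 5′ to 3′ on the strand of its gene, with every CG in capitals. The windows are chr14:46390670-46390919 for *Bmp4*, chr11:103749822-103750071 for *Wnt9b*, chr3:37639697-37639946 for *Spry1* and chr7:98834862-98835111 for *Wnt11*.
Bmp4: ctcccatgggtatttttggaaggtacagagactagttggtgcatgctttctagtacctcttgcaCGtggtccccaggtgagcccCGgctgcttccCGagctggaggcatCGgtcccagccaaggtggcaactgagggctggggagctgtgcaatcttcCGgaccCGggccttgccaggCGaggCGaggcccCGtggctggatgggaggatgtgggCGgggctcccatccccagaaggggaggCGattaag
Wnt9b: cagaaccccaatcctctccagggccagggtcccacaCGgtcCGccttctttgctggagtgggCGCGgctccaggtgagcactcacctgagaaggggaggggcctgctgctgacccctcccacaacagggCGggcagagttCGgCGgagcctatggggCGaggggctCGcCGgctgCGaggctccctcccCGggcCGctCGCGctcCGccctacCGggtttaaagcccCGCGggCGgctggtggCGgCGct
Spry1: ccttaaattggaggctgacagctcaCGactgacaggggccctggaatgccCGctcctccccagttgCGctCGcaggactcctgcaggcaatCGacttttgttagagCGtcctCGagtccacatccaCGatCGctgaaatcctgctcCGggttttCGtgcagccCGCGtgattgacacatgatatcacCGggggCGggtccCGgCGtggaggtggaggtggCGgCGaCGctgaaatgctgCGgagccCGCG
Wnt11: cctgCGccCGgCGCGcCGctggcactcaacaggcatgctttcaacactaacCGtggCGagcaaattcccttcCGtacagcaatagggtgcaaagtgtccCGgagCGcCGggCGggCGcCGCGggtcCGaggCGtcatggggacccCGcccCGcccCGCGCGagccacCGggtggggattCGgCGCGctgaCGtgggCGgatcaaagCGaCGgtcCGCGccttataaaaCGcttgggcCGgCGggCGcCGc
The motif searched was CG, which reads the same on both strands, and 92.1% of 32851 promoter windows of this length held at least 1. *Bmp4* had 11 CpGs in its window, a number reached by 35.6% of all promoters. *Wnt9b* had 22 (reached by 14.8%), *Spry1* 23 (13.3%) and *Wnt11* 37 (2.20%). The *Spry1* window lies within an exon of *Gm42922*, an unclassified transcript on the opposite strand.

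H3K4me3, a histone mark found at the start of active genes and of many poised developmental genes, was present at all 10 genes in at least 3 of the 4 lines. Values are reads per kilobase scaled to the reads of the library (RPKM) in peaks from 2 kb before to 3 kb after the TSS, after input was subtracted, and a gene without a peak has no value. There was a value in all 4 lines for 8 of the 10 genes, against 31.2% of all genes listed. *Gfra1* and *Wnt9b* had a value in PTC12, TTF1 and TTF4 and none in PTC11, a pattern seen at 2.71% of genes listed. The genes listed include genes without a peak in any line and genes that are not protein coding, while all 10 are coding. Both shares are therefore not those of coding genes. PTC11 had the fewest genes with H3K4me3 of the 4 lines, 15114, but TTF4, with a value at both genes, had 15368, against 19990 in PTC12 and 19448 in TTF1.

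**Figure D1:**
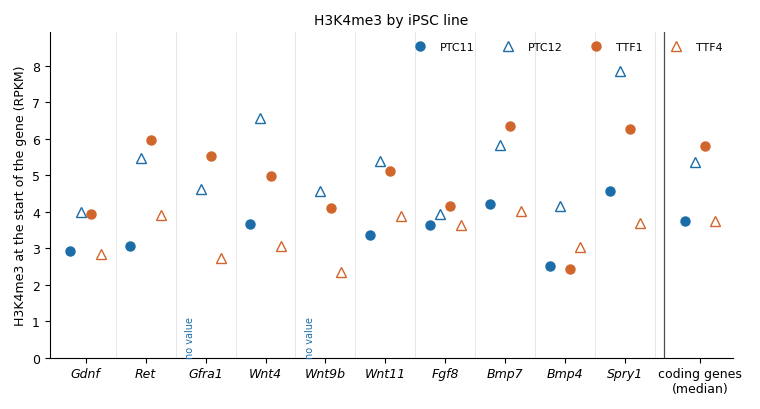
H3K4me3 in RPKM (vertical axis) at the start of each gene in each line, with 1 library per point, PTC lines in blue and TTF lines in orange, and, at the right, the median of protein-coding genes with a value in every line. PTC12 and TTF1 lie above PTC11 and TTF4 at 7 of the 8 genes with 4 values, and *Bmp4* is the exception.

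Among the ligand and receptors of the GDNF pathway, *Gdnf* had 2.92 RPKM of H3K4me3 (PTC11), 3.98 (PTC12), 3.92 (TTF1) and 2.84 (TTF4). *Ret* had 3.06, 5.46, 5.96 and 3.90 RPKM in the same order of lines. *Gfra1* had 4.63 RPKM (PTC12), 5.53 (TTF1) and 2.73 (TTF4), with TTF lines highest and lowest. At each of the 3 genes the values of PTC and TTF lines overlapped. *Gdnf* stood low among the genes with H3K4me3 in each line, between percentile 13.0 in PTC11 and 37.6 in PTC12. *Spry1*, the inhibitor, reached the highest value of any of the 10 genes, 7.84 RPKM in PTC12, with 4.56 in PTC11, 6.26 in TTF1 and 3.69 in TTF4. It stood at percentiles 90.0 and 97.0 in PTC11 and PTC12 and at 73.4 and 52.4 in TTF1 and TTF4, so that its rank, unlike its RPKM, did not overlap between origins. A rank lower in both TTF lines was found at 13.4% of all genes tested.

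Of the WNT ligands, *Wnt4* had 3.65 RPKM of H3K4me3 (PTC11), 6.56 (PTC12), 4.96 (TTF1) and 3.05 (TTF4). *Wnt11* had 3.35, 5.39, 5.10 and 3.88 RPKM. *Wnt9b* had 4.56 RPKM in PTC12 and 4.09 in TTF1, and its 2.35 in TTF4 was the lowest value among the 10 genes in that line. In each of these genes PTC12 was the highest line and TTF1 the next. As deposited, *Fgf8* varied least, from 3.63 RPKM in PTC11 to 4.15 in TTF1, a ratio of 1.14. The other 7 genes with 4 values had ratios of 1.40 to 2.15 between the highest and lowest line.

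The BMP ligands differed from each other in the order of the lines. *Bmp7* had 4.21, 5.82, 6.33 and 4.01 RPKM in PTC11, PTC12, TTF1 and TTF4 and stood at like ranks throughout, between percentile 68.9 in TTF4 and 78.5 in PTC11. *Bmp4* had 2.51, 4.17, 2.42 and 3.04 RPKM, and was the only one of the 8 genes at which TTF1 was the lowest line. PTC12 and TTF1 both lay above PTC11 and TTF4 at 7 of the 8 genes, the exception being *Bmp4*, and at 81.4% of all genes tested. The order of the lines at these genes was therefore near that of the whole table and crossed origin.

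As deposited, none of the 8 genes with 4 values differed in H3K4me3 between origins by more than its standard error. limma on log2(RPKM + 1) called 0 of the 8 genes (every adjusted p = 1), and 0 had an unadjusted p under 0.05. Over all genes it called 0.481% of 13709, 66 genes in number, and 108 when TTF1 was left out. The TTF lines lay on 1 side of both PTC lines at 0 of the 8 genes, while both lay above at 5.04% and both below at 3.17% of all genes tested. *Wnt4* had the largest difference, TTF minus PTC, -0.27 ± 0.42 on the log2 scale (standard error, 95% interval -1.10 to 0.55), with means of 5.11 ± 2.06 RPKM in PTC and 4.01 ± 1.36 in TTF iPSCs (SD, n = 2). *Spry1* followed with -0.26 ± 0.52 (6.20 ± 2.32 against 4.97 ± 1.82 RPKM). *Bmp7* differed by 0.024 ± 0.48 and *Gdnf* by -0.023 ± 0.32, with 95% intervals of -0.92 to 0.97 and -0.64 to 0.60. The median difference was 0.00052 over the 8 genes and 0.045 over all genes tested. With the 3 values of *Gfra1* and *Wnt9b* fitted as they stand, the single PTC value taken to vary like the other lines, the differences were -0.19 ± 0.49 and -0.43 ± 0.42 (adjusted p = 1).

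Because PTC12 and TTF1 were high over the whole table, each line was also divided by its median RPKM, taken over genes with a value in every line. On that scale *Spry1* was at 1.22 and 1.48 times the median in PTC11 and PTC12 and at 1.09 and 0.992 times in TTF1 and TTF4. *Wnt4* was at 0.980, 1.24, 0.868 and 0.819 times the median of PTC11, PTC12, TTF1 and TTF4. *Ret* was at 0.820 and 1.03 times in the PTC lines and at 1.04 and 1.05 times in the TTF lines. Thus *Spry1* and *Wnt4* lay lower in both TTF lines and *Ret* higher, without overlap, as did 13.0% of all genes downward and 13.7% upward under this scaling. limma on these values gave -0.31 ± 0.16 for *Spry1*, -0.31 ± 0.18 for *Wnt4* and 0.15 ± 0.17 for *Ret*, each with an adjusted p of 1. *Bmp7* stood between 1.08 and 1.13 times the median in all 4 lines, the narrowest range of the 8 genes. *Fgf8*, which varied least in RPKM, was at 0.972, 0.743, 0.726 and 0.977 times in PTC11, PTC12, TTF1 and TTF4, and so was not the steadiest gene on this scale.

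H3K36me3, deposited along gene bodies behind elongating RNA polymerase, had a value at all 10 genes in all 4 lines, against 38.7% of all genes listed. Those listed again include genes that are not protein coding. The values are RPKM averaged over peaks in the gene body. They split the lines in another way than H3K4me3 did. PTC12 and TTF4 lay above PTC11 and TTF1 at 9 of the 10 genes, *Bmp4* again being the exception, and at 93.6% of all genes tested. PTC11 and TTF1 had more genes with a value, 29905 and 23466, against 23101 (PTC12) and 20381 (TTF4). A higher mean over peaks thus need not mean more of the mark in the line. The paper describes the reverse split in read coverage at renal genes such as *Jag1* and *Gata3*, with more H3K36me3 in PTC11 and TTF1. Those genes are not among the 10, and the reason for the reversal was not tested.

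**Figure D2:**
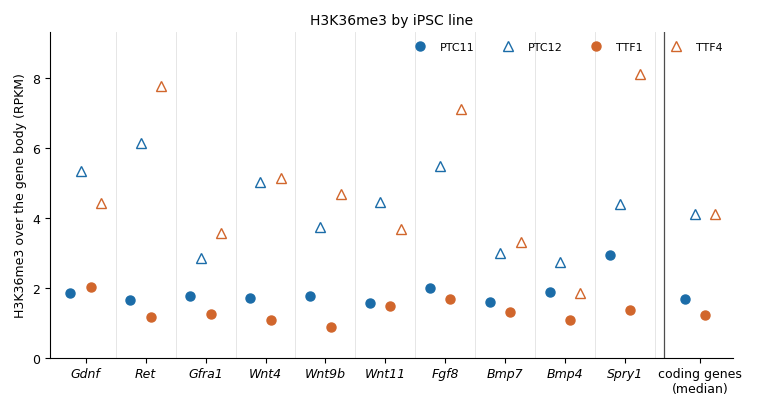
H3K36me3 in RPKM (vertical axis) over the body of each gene in each line, with 1 library per point, PTC lines in blue and TTF lines in orange, and, at the right, the median of protein-coding genes with a value in every line. The open triangles of PTC12 and TTF4 stand above the filled circles of PTC11 and TTF1 except at *Bmp4*, where TTF4 falls just below PTC11.

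*Gdnf* had 1.85 RPKM of H3K36me3 (PTC11), 5.34 (PTC12), 2.03 (TTF1) and 4.43 (TTF4). *Ret* had 1.64, 6.14, 1.17 and 7.79 RPKM, a ratio of 6.68 between TTF4 and TTF1 and the widest range of the 10 genes. *Gfra1*, at 220306 bp the longest of them and overlapped by the antisense gene *Gm16277*, had 1.76, 2.86, 1.26 and 3.57 RPKM. The highest and the lowest line of *Ret* and *Gfra1* were thus both TTF lines. *Spry1* had 2.95, 4.41, 1.37 and 8.12 RPKM, the highest value of the 10 genes in PTC11 and in TTF4. Its rank was at percentile 97.9 in PTC11 and 97.6 in TTF4, but at 63.1 in PTC12 and 69.3 in TTF1.

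For *Wnt4* the H3K36me3 values were 1.72, 5.02, 1.08 and 5.15 RPKM in PTC11, PTC12, TTF1 and TTF4. *Wnt9b* had 1.76, 3.74, 0.870 and 4.69 RPKM, with the lowest value of the 10 genes in TTF1. *Wnt11*, whose body holds the pseudogene *Gm8398*, had 1.57, 4.45, 1.50 and 3.68 RPKM. The WNT genes shared the split of the lines, and within it the TTF lines bracketed the PTC lines at *Wnt4* and *Wnt9b*. *Fgf8* had 1.99, 5.49, 1.68 and 7.12 RPKM and stood high in every line, from percentile 80.1 in PTC11 to 94.6 in TTF4. Divided by the line median, *Fgf8* was at 1.20 and 1.36 times in the PTC lines and 1.39 and 1.75 times in the TTF lines. It was the only one of the 10 genes without overlap on that scale, with 0 lower in both TTF lines, where 13.6% of all genes were higher and 14.6% lower in both.

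*Bmp7* had 1.60, 2.99, 1.32 and 3.31 RPKM of H3K36me3 in PTC11, PTC12, TTF1 and TTF4. *Bmp4* had 1.90, 2.74, 1.08 and 1.86 RPKM, so that both TTF lines lay below both PTC lines, TTF4 by less than 0.1 RPKM. This was the only one of the 10 genes without overlap between origins as deposited, against 3.05% of all genes tested with both TTF lines below and 0.452% with both above. Its means were 2.32 ± 0.599 RPKM in PTC and 1.47 ± 0.557 in TTF iPSCs (SD, n = 2). The exact permutation test gave its smallest two-sided value for 2 lines against 2, p = 0.333. Scaled to the line medians the lines of *Bmp4* overlapped, at 1.15 and 0.680 times in PTC11 and PTC12 and 0.889 and 0.458 times in TTF1 and TTF4. Antisense gene *Gm15222* and coding gene *Gm15217* overlap the body of *Bmp4* on the other strand, and ChIP-seq peaks there cannot be assigned to 1 of them.

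limma called 0 of the 10 genes in H3K36me3 (every adjusted p = 1), and 0 had an unadjusted p under 0.05. Of all 17039 genes tested it called 0.112%, which was 19 genes, 31 without PTC11, 8 without TTF1 and 1 without TTF4. The differences, TTF minus PTC on log2(RPKM + 1), ran from -0.43 ± 0.79 for *Bmp4* to 0.082 ± 1.27 for *Fgf8*. As deposited, with the split of the lines over the whole table included, standard errors were between 0.79 and 1.29. The 95% interval of *Bmp4*, the narrowest of the 10, ran from -1.98 to 1.12. The median difference was -0.048 over the 10 genes and -0.14 over all genes tested. Dividing by the line medians moved the median of all genes by 0.12 on the log2 scale, and it turned the small differences of *Gdnf*, *Gfra1*, *Wnt11* and *Bmp7* from below to above 0. On that scale standard errors were smaller, from 0.20 for *Fgf8* to 0.34 for *Ret*. The differences were 0.23 ± 0.20 for *Fgf8* and -0.31 ± 0.31 for *Bmp4*, and limma again called 0 of the 10 genes.

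H3K27me3, the mark laid down by Polycomb at silenced developmental genes, had no value at any of the 10 genes in any of its 4 libraries. These libraries listed a value at 69, 144, 52 and 11 genes in all, and both PTC libraries carried the name of line PTC11, so no comparison of origins was made. With so few genes listed, a missing value says only that no peak was kept there, not that the mark was absent.

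CpG methylation was read by nanopore sequencing, which calls methylated C from the raw current signal. The value of a gene is the fraction of methylated CpGs, averaged over 300 bp windows within 1 kb of the TSS. All 10 genes had a value in all 4 lines, against 91.3% of genes listed. The start of most of them was sparsely methylated. Mean fractions over the 4 lines were between 0.0186 (*Bmp7*) and 0.217 (*Wnt9b*) at 9 genes and 0.276 at *Bmp4*. PTC11 had a median over the 10 genes of 0.0894, PTC12 of 0.116, TTF1 of 0.102 and TTF4 of 0.152. Over protein-coding genes the medians were 0.156, 0.215, 0.157 and 0.395. The depth behind these fractions is unknown, since the tables give no coverage.

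**Figure D3:**
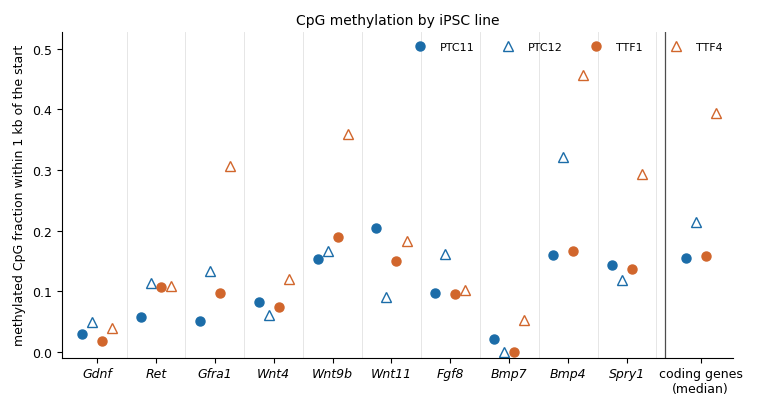
Fraction of methylated CpGs within 1 kb of the start (vertical axis) of each gene in each line, with 1 library per point, PTC lines in blue and TTF lines in orange, and, at the right, the median of protein-coding genes with a value in every line. TTF4 is the highest line at *Gfra1*, *Wnt4*, *Wnt9b*, *Bmp7*, *Bmp4* and *Spry1*.

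*Gdnf* was the least methylated after *Bmp7*, with fractions of 0.0297 (PTC11), 0.0486 (PTC12), 0.0171 (TTF1) and 0.0391 (TTF4). *Ret* had 0.0568, 0.114, 0.107 and 0.108. *Gfra1* had 0.0506, 0.133, 0.0970 and 0.307, a ratio of 6.07 between TTF4 and PTC11 and the widest of the 9 genes without a 0. The genes of the ligand and its receptors thus differed in how far TTF4 stood apart. *Spry1* had 0.142, 0.118, 0.137 and 0.294, again with TTF4 highest and the other 3 lines close together.

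Among the WNT genes *Wnt4* had fractions of 0.0822, 0.0606, 0.0737 and 0.121, and *Wnt9b* had 0.153, 0.167, 0.189 and 0.359 in PTC11, PTC12, TTF1 and TTF4. As deposited, the TTF lines were both higher than the PTC lines at *Wnt9b* and at no other of the 10 genes, while this held at 20.5% of all genes tested and the reverse at 3.36%. *Wnt11* had its highest fraction in PTC11, with 0.205, 0.0902, 0.149 and 0.183. *Fgf8* had 0.0966, 0.162, 0.0959 and 0.102, with PTC12 highest. *Bmp7* was listed at 0 in PTC12 and TTF1 and had 0.0215 in PTC11 and 0.0529 in TTF4. *Bmp4*, with the fewest CpGs, was the most methylated in PTC12 and TTF4, with 0.160, 0.322, 0.166 and 0.457. TTF4 was the highest line at 6 of the 10 genes, against 75.4% of all genes tested, and its mean over all genes was 0.649 against 0.372 to 0.482 in the other lines.

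Fractions were centred on the mean of each line before the origins were compared, as the study did. limma then called 0 of the 10 genes (every adjusted p at 1.00), and 0 had an unadjusted p under 0.05. It called 0.00395% of 50657 genes, which was 2 genes, against 5 without PTC11, 0 without PTC12, 1020 without TTF1 and 227 without TTF4. No gene of the 10 lay on 1 side in both TTF lines after centring, where 15.0% of all genes were above and 12.8% below in both. The differences, TTF minus PTC of the centred fraction, ran from -0.117 ± 0.130 for *Fgf8* (95% interval -0.377 to 0.143) to 0.0274 ± 0.133 for *Wnt9b* (-0.239 to 0.294). Their median was -0.0631, and over all genes tested -0.0100. Centring took 0.0871 off the difference of every gene, so a gene with equal fractions in all lines comes out below 0. The median over all genes tested was 0.0771 before centring. Without centring, the differences of *Ret*, *Wnt4*, *Wnt11*, *Bmp7*, *Bmp4* and *Spry1* changed from below to above 0, with values from 0.0157 for *Bmp7* to 0.0855 for *Spry1*, so these directions rest on the centring.

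**Figure D4:**
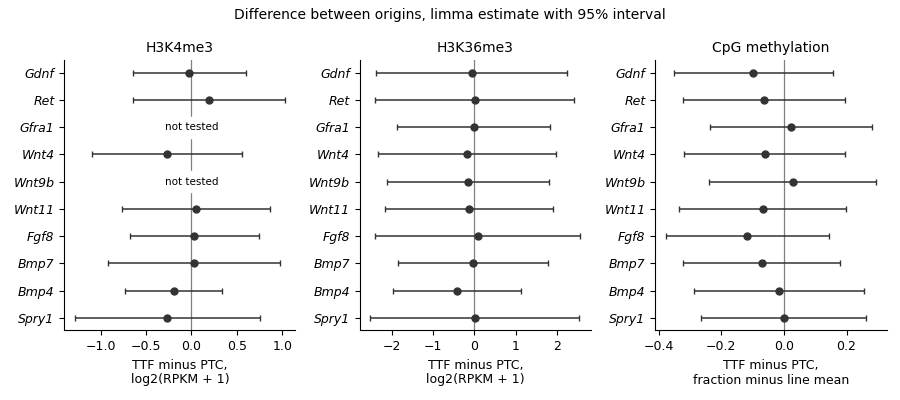
Difference between origins, TTF minus PTC (horizontal axes, log2(RPKM + 1) for the histone marks and fraction minus the line mean for methylation), for each gene, with points for the limma estimate and bars for its 95% interval. Every interval includes 0, and *Gfra1* and *Wnt9b* were not tested in H3K4me3 because PTC11 had no value.

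Methylation of a promoter depends on its CpGs, so each gene was set beside all genes whose number of CpGs within 1000 bp of the TSS was within 5 of its own. *Spry1* had 179 CpGs and a mean fraction of 0.173 over the 4 lines, while the median of 253 such genes was 0.0411 (quartiles 0.0194 and 0.0681), which put *Spry1* at percentile 97.4. Its percentile was 97.4 (PTC11), 90.3 (PTC12), 97.8 (TTF1) and 95.8 (TTF4), so that this held in every line. *Wnt9b* (98 CpGs, mean fraction 0.217) was at percentile 85.0 and *Wnt4* (197 CpGs, 0.0843) at 83.9. *Bmp7* was at the other end, at percentile 10.8, with *Gdnf* at 21.4. *Bmp4*, whose 48 CpGs are few, was at percentile 26.2, with a mean fraction of 0.276 against a median of 0.443, so that its high fraction was not high for a gene with so few CpGs. *Ret*, *Gfra1*, *Fgf8* and *Wnt11* were between percentiles 52.3 and 72.9. These ranks are descriptions and were not tested.

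**Figure D5:**
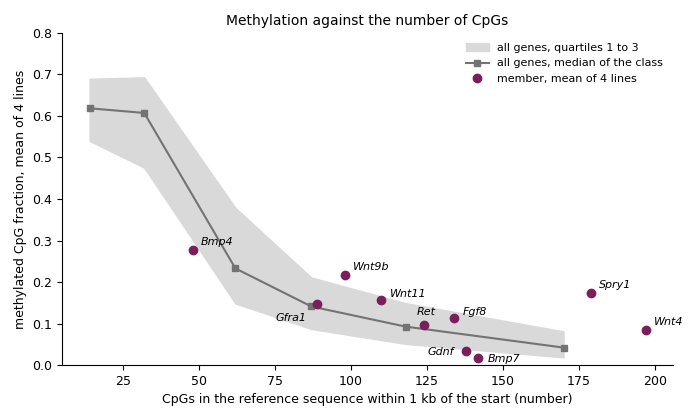
Mean fraction of methylated CpGs over the 4 lines (vertical axis) against the number of CpGs within 1 kb of the start (horizontal axis). Points are the 10 genes, squares the medians of all genes in 6 classes of CpG number, and the grey band their quartiles 1 to 3. The band ends at 170 CpGs, the median of the last class. *Spry1* and *Wnt4* lie to the right of that end, above the quartile 3 of the class, 0.0814, *Wnt4* barely. *Wnt9b* lies above the band. The median of all genes falls from 0.618 to 0.0425 over the classes.

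Set beside each other, the marks described different states at single genes. *Spry1* had H3K4me3 at percentiles from 52.4 (TTF4) to 97.0 (PTC12) and H3K36me3 from 63.1 (PTC12) to 97.9 (PTC11). It combined them with more methylation than most genes of like CpG number. The unclassified transcript *Gm42922*, which starts 709 bp from its TSS on the other strand, lies in the same windows. *Bmp7* combined H3K4me3 above the median in every line with the lowest mean methylation, 0.0186. *Gfra1* and *Wnt9b*, without H3K4me3 in PTC11, had their lowest fractions in that line, which also had the lowest mean over all genes. With the line mean taken off, PTC11 was instead the next highest line after TTF1 at both. Over all genes with H3K4me3 in 4 lines the median fraction was 0.120, over those with it in 3 lines 0.327 and over those without it 0.618, and *Gfra1* (0.147) and *Wnt9b* (0.217) lay below the 0.327 of genes with 3 lines.

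The other genes of the 4 pathways were taken from lists of 90 genes in all. Of 21 GDNF and RET genes (other ligands and co-receptors, and RET adaptors and targets), 0 of 16 tested in H3K4me3, 0 of 18 in H3K36me3 and 0 of 21 in methylation passed the limma test. The same held for 28 WNT genes (0 of 25, 27 and 28), 19 FGF genes (0 of 16, 16 and 19) and 22 BMP genes (0 of 20, 20 and 22). Median differences over all 90 genes were 0.024 in H3K4me3, -0.098 in H3K36me3 and -0.0685 in methylation, beside 0.045, -0.14 and -0.0100 over all genes tested. Those of methylation are of centred fractions, in which genes with equal fractions in all lines come out below 0. The TTF lines lay above both PTC lines at 1, 0 and 4 of the genes tested in the 3 assays and below both at 1, 1 and 11. Over all genes tested the shares were 5.04%, 0.452% and 15.0% above and 3.17%, 3.05% and 12.8% below. The lowest adjusted p was 0.982, for *Dusp6*, a phosphatase that dampens ERK signalling, which had methylation fractions of 0.00221, 0.0123, 0.0208 and 0.800 in PTC11, PTC12, TTF1 and TTF4. TTF4 alone carried that difference, and *Dusp6* was the only one of the 90 genes with an unadjusted p under 0.05 in any assay.

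Another 5 genes had the largest difference of their list among those whose origins did not overlap. In methylation, *Robo2*, a SLIT receptor that limits the site of bud outgrowth, had fractions of 0.131, 0.227, 0.0854 and 0.0167 in PTC11, PTC12, TTF1 and TTF4. *Lrp5*, a WNT co-receptor, had 0.110, 0.251, 0.0342 and 0.164, and its centred values did not overlap although the deposited ones did. *Bmp5*, a BMP ligand, had 0.670, 0.721, 0.413 and 0.784, likewise only after centring. On the centred scale all 3 lay lower in the TTF lines, with differences of -0.215 ± 0.131, -0.168 ± 0.129 and -0.185 ± 0.153. *Tcf7l2*, a transcription factor of WNT signalling, had 3.80, 5.09, 3.58 and 3.12 RPKM of H3K4me3. *Id3*, a BMP target, had 2.68, 3.14, 1.73 and 2.10 RPKM of H3K36me3. Both lay lower in the TTF lines, with differences of -0.32 ± 0.36 and -0.42 ± 0.98 on the log2 scale, and each of the 5 genes had an adjusted p of at least 0.9999.

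Markers were read for what the lines could hold. Of 10 pluripotency genes, 9 had H3K4me3 in PTC11, PTC12 and TTF1 and 6 in TTF4, with a summed level of 33.3, 33.9, 39.0 and 22.3 RPKM, and *Esrrb* had none in any line. Of 7 proximal tubule genes, *Lrp2* alone had H3K4me3 in every line, *Aqp1* had it in PTC12, and *Slc34a1* had none in any line. Of 8 fibroblast genes, 2 had H3K4me3 in PTC11, 7 in PTC12 and in TTF1 each, and 5 in TTF4, with summed levels of 5.88, 25.9, 26.1 and 17.3 RPKM, and *Col3a1* had none in any line. The fibroblast sums were thus highest in PTC12 and TTF1, the lines that lay above PTC11 and TTF4 at 81.4% of all genes tested. These sums rise with the number of genes that have a value. The medians of those genes were 2.94 (PTC11), 3.51 (PTC12), 3.78 (TTF1) and 3.39 RPKM (TTF4). A part of fibroblasts in the values of the induction signals was not tested. The lines were kept on mouse embryonic fibroblast feeders before differentiation, and whether feeder cells were present at chromatin preparation is not given in the sources used here. More cells with a mark and more mark per cell cannot be told apart in such bulk samples.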

How the data were processed

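The data are 16 libraries of 4 iPSC lines, of which 12 entered tests (H3K4me3, H3K36me3 and CpG methylation, 1 library per line). Replicates are lines, 2 clones of each origin. The standard errors and p-values rest on a spread between lines that limma took largely from genes of like level, not from the gene alone. For *Fgf8* in H3K4me3 the standard error was 0.36, while the SDs of its lines on the log2 scale were 0.068 (PTC) and 0.11 (TTF). Per the labels the reads were aligned to mm10. The authors deposited histone values as RPKM per gene. They called MACS2 (version 2.0.10) peaks in each library, counted reads with bedtools (2.17.0), took off the RPKM of the input and averaged over the peaks of a gene, so a value depends on peak calling. Methylation was deposited by the authors as the fraction of methylated CpGs per gene, in 300 bp windows every 30 bp within 1000 bp of the TSS, from minimap2 (2.17-r941) alignments. No counts or coverage are in the tables analysed here, so the depth per sample is unknown and no counting interval is given. No column with sample values was left aside.

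Genes valued in every line were fitted by limma 3.58.1 (R 4.3.3), using lmFit and then eBayes with a variance trend, on log2(RPKM + 1), which understates changes of low genes, or on the fraction minus the line mean. P-values were adjusted by Benjamini-Hochberg over all genes, with a threshold of 0.05. limma was chosen because the values are not counts. Tested on simulated data, it recovered planted differences when lines varied little, but few in H3K4me3 and none in the other assays at the spread of these lines. That simulation drew the noise of each gene on its own, at the spread before any scaling between lines. The real lines also shift over the whole table, so it does not tell what limma would recover in them. An exact permutation test over the 4 lines cannot give a two-sided p below 0.333. CpGs and gene overlaps came from the reference genome and GENCODE annotation of mm10. Alternatives varied scaling, pseudocount, low-value filter, missing values, variance trend and each line. All 10 genes are named. Of the pathway lists the rule names genes with an adjusted p under 0.05 and, in each assay and list, the largest difference without overlap. The genes and lists were chosen with earlier results of these data known. Other steps used Python 3.11.15, pandas 2.3.3, numpy 2.4.6 and matplotlib 3.10.9.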

Additional observations from a re-analysis of the deposited data

How the results depend on the processing

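No alternative called any of the 10 genes, which does not show that the origins are alike at them. The lowest adjusted p of the limma fits was 0.987 in H3K4me3, 0.871 in H3K36me3 and 0.448 in methylation. No paired analysis was possible because the lines of the 2 origins share no numbers. Depth is unknown, and with 2 lines of each origin the spread between lines sets the precision.

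Calls over all genes changed with the settings, and the cause was not tested. H3K4me3 calls were 0 after quantile normalization, scaling to the same median, a mean of at least 1 RPKM or no variance trend, 102 with a pseudocount of 0.1 and 183 with at least 1 value in each origin. The H3K36me3 calls were 0 under the same 4 settings, 44 with the lower pseudocount and 29 with at least 1 value in each origin. Methylation calls were 0 without centring, after division by the SD of the line, after quantile normalization or at a mean fraction of at least 0.05, 4 with at least 1 value in each origin and 1 without a variance trend. Leaving out 1 line at a time gave 59 to 108, 1 to 31 and 0 to 1020 calls in the 3 assays. Each such fit set 1 line against 2 and took the spread from the other origin, the lone line being assumed to vary like it, so the lack of calls among the 10 genes there says nothing of stability.

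In H3K4me3 the TTF lines lay on 1 side of both PTC lines at 4 of the genes after quantile normalization (*Gdnf*, *Ret*, *Wnt4* and *Spry1*; 28.5% of all genes), at 3 when scaled to the same median (26.7%) and at 1 with missing values kept (*Wnt9b*, 15.3%). In methylation this was 1 gene without centring (*Wnt9b*, 23.9% of all genes), 1 after division by the SD (*Gfra1*, 30.1%) and 2 after quantile normalization (*Gdnf* and *Gfra1*, 33.6%). With a line left out this count is not defined and was not run.

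Directions near 0 turned under some settings. After quantile normalization and scaling to the same median, the H3K4me3 differences were -0.0013 and -0.0099 for *Fgf8* and -0.039 and -0.022 for *Bmp7*. Under the same settings the H3K36me3 differences were 0.17 and 0.12 for *Gdnf*, 0.076 and 0.097 for *Gfra1*, 0.091 and 0.037 for *Wnt11*, and 0.12 and 0.11 for *Bmp7*. A pseudocount of 0.1 gave -0.062 for *Ret* and -0.096 for *Spry1* in H3K36me3. Methylation differences without centring were 0.0221 for *Ret*, 0.0258 for *Wnt4*, 0.0190 for *Wnt11*, 0.0157 for *Bmp7*, 0.0706 for *Bmp4* and 0.0855 for *Spry1*. *Spry1* was at 0.0621 after division by the SD and 0.0154 after quantile normalization, which put *Ret* at 0.00234. The other differences, 44 in H3K4me3, 50 in H3K36me3 and 49 in methylation, kept their direction. These counts include the low-value filter, the missing-value setting and the fit without a variance trend. Those settings leave the estimate of a gene as it was, so its direction could not turn there, and the counts do not measure stability.

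With 1 line left out at a time, H3K4me3 differences ranged over *Gdnf* -0.20 to 0.16, *Ret* -0.15 to 0.53, *Wnt4* -0.62 to 0.078, *Wnt11* -0.23 to 0.33, *Fgf8* -0.045 to 0.11, *Bmp7* -0.25 to 0.30, *Bmp4* -0.47 to 0.085, *Spry1* -0.60 to 0.069. H3K36me3 differences ranged over *Gdnf* -0.64 to 0.51, *Ret* -1.005 to 1.02, *Gfra1* -0.53 to 0.49, *Wnt4* -0.96 to 0.60, *Wnt9b* -0.95 to 0.65, *Wnt11* -0.67 to 0.41, *Fgf8* -0.72 to 0.88, *Bmp7* -0.47 to 0.42, *Bmp4* -0.67 to -0.20, *Spry1* -0.97 to 0.98. Those of methylation ranged over *Gdnf* -0.222 to 0.0261, *Ret* -0.199 to 0.0694, *Gfra1* -0.00740 to 0.0532, *Wnt4* -0.173 to 0.0504, *Wnt9b* -0.0227 to 0.0775, *Wnt11* -0.186 to 0.0501, *Fgf8* -0.250 to 0.0149, *Bmp7* -0.180 to 0.0374, *Bmp4* -0.0428 to 0.00981, *Spry1* -0.0689 to 0.0658. The H3K36me3 difference of *Bmp4* stayed below 0 whichever line was left out. This follows from both TTF lines being below both PTC lines as deposited, and adds nothing to it.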
